A study of Mus musculus with 6 samples.

Results

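Mouse testis expresses 2 forms of several enzymes of energy metabolism, one found in most tissues and one found in germ cells. The 10 genes described here form 5 such pairs: Pgk1 and Pgk2 (phosphoglycerate kinase), Pdha1 and Pdha2 (E1 alpha subunit of pyruvate dehydrogenase), Ldha and Ldhc (lactate dehydrogenase), Gapdh and Gapdhs (glyceraldehyde-3-phosphate dehydrogenase), and Cycs and Cyct (cytochrome c). They were chosen by name, and every probe set whose platform annotation gives exactly one of these symbols was read. This gave 16 of 45037 probe sets, for 9 of the 10 genes. Gapdh itself has no value here: 3 probe sets with its symbol are array controls, which were left out, and 3 others list it with pseudogenes or other genes and name no single gene. Gapdhs is therefore described without its partner.

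RNA from whole testes of mice aged 5 weeks was measured on 6 Affymetrix arrays, 3 of wild-type and 3 of Phf13 knockout mice. The labels name neither the strain nor the knockout allele and do not say whether each array stands for another animal. The p-values therefore refer to the spread among these arrays, which may be technical. Phf13 encodes a PHD finger protein that binds methylated histone H3, and its signal dropped by 2.91 (log2) in knockout mice (limma adjusted p = 7.7e-06). Values are the log2 signals deposited by the authors, 1 per probe set. A difference is the knockout mean minus the wild-type mean on that scale.

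Glycolysis turns glucose into pyruvate, pyruvate dehydrogenase feeds pyruvate into mitochondria, lactate dehydrogenase interconverts pyruvate and lactate, and cytochrome c carries electrons to the last complex of the respiratory chain. Spermatocytes and spermatids live largely on lactate that Sertoli cells supply, and the flagellum of sperm runs glycolysis along its length with germline enzymes. Pgk1 and Pdha1 lie on the X chromosome, which is silenced in spermatocytes during meiosis, and their germline partners Pgk2 and Pdha2 are autosomal genes derived from retrocopies of them. Ldha, Ldhc and Gapdhs lie on chromosome 7, Gapdh and Cycs on chromosome 6, Cyct on chromosome 2, Pgk2 on chromosome 17 and Pdha2 on chromosome 3, in RefSeq's assembly GRCm38.p6.

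The promoters of the pairs differ in how many CpG dinucleotides they hold, and 3 pairs are shown because their somatic members had the largest differences between genotypes. Each line gives the 250 bases before the start of the gene, 5′ to 3′ on the strand of the gene, from RefSeq (build GRCm38.p6), with CpG dinucleotides in capitals.
Pgk1 (chrX:106186850-106187099, plus strand): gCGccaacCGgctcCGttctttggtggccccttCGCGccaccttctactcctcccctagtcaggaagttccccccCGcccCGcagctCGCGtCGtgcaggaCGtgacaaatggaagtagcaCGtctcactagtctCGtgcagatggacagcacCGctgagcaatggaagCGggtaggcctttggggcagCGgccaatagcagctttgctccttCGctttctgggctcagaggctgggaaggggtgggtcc
Pgk2 (chr17:40208610-40208859, minus strand): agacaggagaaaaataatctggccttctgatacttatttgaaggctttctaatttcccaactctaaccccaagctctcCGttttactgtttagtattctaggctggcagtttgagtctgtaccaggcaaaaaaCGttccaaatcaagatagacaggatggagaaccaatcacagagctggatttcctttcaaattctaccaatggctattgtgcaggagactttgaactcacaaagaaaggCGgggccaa
Pdha1 (chrX:160138431-160138680, minus strand): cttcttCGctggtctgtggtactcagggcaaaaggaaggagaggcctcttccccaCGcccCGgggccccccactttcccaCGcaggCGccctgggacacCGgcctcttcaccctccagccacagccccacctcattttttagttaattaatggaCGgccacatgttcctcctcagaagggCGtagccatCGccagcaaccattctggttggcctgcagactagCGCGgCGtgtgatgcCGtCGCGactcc
Pdha2 (chr3:141212356-141212605, minus strand): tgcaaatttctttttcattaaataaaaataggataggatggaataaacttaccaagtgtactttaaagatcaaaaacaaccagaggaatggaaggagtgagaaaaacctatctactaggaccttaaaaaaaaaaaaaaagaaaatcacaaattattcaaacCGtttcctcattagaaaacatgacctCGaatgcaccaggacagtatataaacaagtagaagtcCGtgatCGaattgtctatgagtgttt
Cycs (chr6:50566570-50566819, minus strand): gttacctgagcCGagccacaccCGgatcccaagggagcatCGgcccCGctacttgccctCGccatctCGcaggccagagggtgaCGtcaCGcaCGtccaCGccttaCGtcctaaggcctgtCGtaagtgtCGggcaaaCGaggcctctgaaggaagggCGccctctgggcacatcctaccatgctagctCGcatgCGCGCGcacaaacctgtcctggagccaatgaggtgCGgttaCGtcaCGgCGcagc
Cyct (chr2:76360454-76360703, minus strand): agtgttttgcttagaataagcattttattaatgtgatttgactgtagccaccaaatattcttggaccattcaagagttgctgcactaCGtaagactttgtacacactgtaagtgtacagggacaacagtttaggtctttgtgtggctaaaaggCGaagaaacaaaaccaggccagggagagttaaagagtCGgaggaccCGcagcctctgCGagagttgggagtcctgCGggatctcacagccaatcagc

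The upstream window of Cycs held 23 CpG dinucleotides against 6 for Cyct, that of Pgk1 held 17 against 3 for Pgk2, and that of Pdha1 held 15 against 4 for Pdha2. Over 32841 such windows of all genes the median was 6, with quartiles of 2 and 16. The same order was seen for the first listed start of Ldha, with 25, and of Ldhc, with 8, and their other starts held 9 and 3. Gapdh had 8, and the windows of Gapdhs had 0 and 1. All 10 genes were found in the promoter table, Ldha, Ldhc and Gapdhs with a pair of starts each. The cAMP response element TGACGTCA, which reads the same on both strands, stood once in the window of Cycs and once before the first listed start of Ldha, and 1.55% of all windows held it. Its shorter form TGACG, counted on both strands and overlapping the full element, occurred 2 times before the first listed start of Ldhc, 2 times before the first and 1 time before the other start of Ldha, and 3 times in Cycs (17.8% of all windows held it). TATAAA, on either strand, occurred among these genes in Pdha2 alone (12.4% of all windows). These matches describe the letters only; no binding was measured.

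Among the 9 measured genes, Cycs had the largest difference between genotypes. Cycs encodes the cytochrome c of somatic tissues, which carries electrons and, when it leaks from mitochondria, starts the caspase cascade of apoptosis. Its brightest probe set stood at 10.54, 10.81 and 10.98 in wild type and at 11.15, 11.39 and 11.50 in knockout. All 3 knockout arrays lay above all 3 wild-type arrays. The means were 10.78 ± 0.22 and 11.35 ± 0.18 (SD, n = 3 each), a difference of 0.57 with a 95% interval of 0.25 to 0.89, or 1.49-fold. This did not pass the threshold of 0.05 over the whole array (limma adjusted p = 0.193).

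The other probe sets of Cycs gave similar differences. A second bright one stood at 10.02, 10.18 and 10.25 in wild type and at 10.42, 10.79 and 10.89 in knockout, a difference of 0.55 (limma adjusted p = 0.193). The third stood at 9.13, 9.26 and 9.44 in wild type and at 9.52, 9.92 and 10.08 in knockout, a difference of 0.56 (limma adjusted p = 0.211). In both of these the groups did not overlap, with knockout 1 the lowest and knockout 3 the highest of the knockout arrays. The last was dim, with a wild-type mean of 3.34 where the lower quartile of the arrays ran from 3.66 to 3.75, and differed by 0.38. Both of the brightest have the name ending _a_at, used for probe sets that match several transcripts of a gene. Cycs has processed pseudogenes, and signal from them cannot be separated from that of the gene with these values.

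Cyct, the testis form of cytochrome c, showed a small difference of the opposite sign. It stood at 10.95, 11.11 and 11.15 in wild type and at 11.00, 10.93 and 11.00 in knockout, and the groups overlapped. The difference was -0.09 with a 95% interval of -0.30 to 0.12 (limma adjusted p = 0.664). Taken within each array, Cyct minus Cycs was 0.41, 0.30 and 0.17 in wild type and -0.15, -0.46 and -0.50 in knockout. Such a value mixes 2 probe sets whose signals do not compare abundances, so only its change between genotypes can be read. It was lower in knockout by 0.66 on the log2 scale, all 3 knockout arrays lay below all 3 wild-type arrays, and the exact two-sided permutation test gave p = 0.1, the smallest that 3 against 3 arrays allow.

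**Figure D1:**
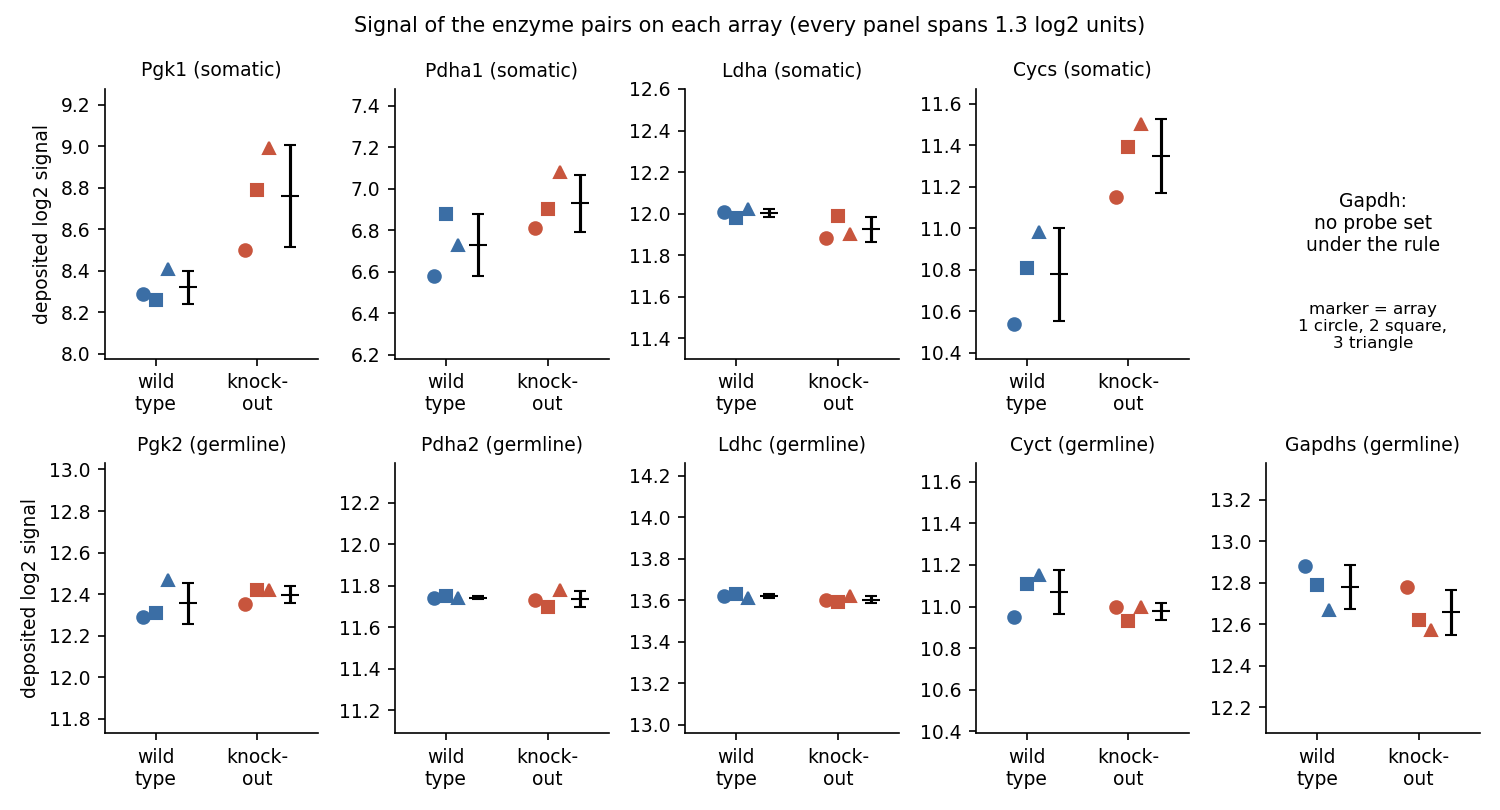
Deposited log2 signal (y axis) of the brightest probe set of each gene on the 3 wild-type (blue) and 3 knockout (red) arrays, with the mean and SD of each genotype beside the points; upper row somatic forms, lower row germline forms. For Cycs and Pgk1 every knockout array lies above every wild-type array, whereas the groups overlap for all 5 germline forms.

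Pgk1, the phosphoglycerate kinase of somatic cells, which makes ATP in glycolysis, showed the next largest difference. It stood at 8.29, 8.26 and 8.41 in wild type and at 8.50, 8.79 and 8.99 in knockout. The groups did not overlap, and the knockout arrays were spread more widely (8.32 ± 0.08 in wild type, 8.76 ± 0.25 in knockout; SD, n = 3). The difference was 0.44 with a 95% interval of 0.14 to 0.74, or 1.36-fold (limma adjusted p = 0.224). Its other probe sets differed by 0.43 and 0.44 (limma adjusted p = 0.204 and 0.353). Both are of the _x_at type, whose probes may partly match transcripts of other genes, and in the last the groups overlapped because knockout 1, at 7.53, lay among the wild-type arrays at 7.43, 7.61 and 7.74.

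Pgk2 takes the place of Pgk1 in spermatocytes and spermatids and is needed for sperm motility. It stood at 12.29, 12.31 and 12.47 in wild type and at 12.35, 12.42 and 12.42 in knockout, with overlapping groups. The difference was 0.04 with a 95% interval of -0.17 to 0.25 (limma adjusted p = 0.868). Within each array, Pgk2 minus Pgk1 was 4.0, 4.05 and 4.06 in wild type and 3.85, 3.63 and 3.43 in knockout. The knockout mean was lower by 0.40 on the log2 scale, again without overlap, at the smallest exact permutation p of 0.1.

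Pdha1 encodes the catalytic alpha subunit of the somatic pyruvate dehydrogenase, and its probe sets disagreed on the size of the difference. The brighter one stood at 6.58, 6.88 and 6.73 in wild type and at 6.81, 6.90 and 7.08 in knockout. These groups overlapped, and the difference was 0.20 with a 95% interval of -0.06 to 0.46 (limma adjusted p = 0.440). The other stood at 5.69, 5.95 and 5.96 in wild type and at 6.28, 6.22 and 6.35 in knockout, without overlap, a difference of 0.42 (limma adjusted p = 0.196). With the mean of both probe sets the difference was 0.31, more than 1.5 times that of the brighter one.

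Pdha2, its testis counterpart, hardly varied between arrays. It stood at 11.74, 11.75 and 11.74 in wild type and at 11.73, 11.70 and 11.78 in knockout. The difference was -0.01 with a 95% interval of -0.19 to 0.18 (limma adjusted p = 0.981). Pdha2 minus Pdha1 was 5.16, 4.87 and 5.01 in wild type and 4.92, 4.80 and 4.70 in knockout, lower by 0.21 on the log2 scale in knockout, with overlapping groups (exact two-sided permutation p = 0.2).

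In the lactate dehydrogenase pair both members showed small differences. Ldha, whose enzyme favours making lactate from pyruvate and is abundant in Sertoli cells, stood at 12.01, 11.98 and 12.02 in wild type and at 11.88, 11.99 and 11.90 in knockout. The groups overlapped through knockout 2, and the difference was -0.08 with a 95% interval of -0.27 to 0.11 (limma adjusted p = 0.685). Ldhc, the lactate dehydrogenase of spermatocytes, spermatids and sperm, stood at 13.62, 13.63 and 13.61 in wild type and at 13.60, 13.59 and 13.62 in knockout, a difference of -0.02. Its other probe set differed by -0.01. Ldhc minus Ldha differed by 0.06 between genotypes (exact two-sided permutation p = 0.3).

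Gapdhs, the glyceraldehyde-3-phosphate dehydrogenase bound to the fibrous sheath of the sperm tail, stood at 12.88, 12.79 and 12.67 in wild type and at 12.78, 12.62 and 12.57 in knockout. The difference was -0.12 with a 95% interval of -0.35 to 0.10 (limma adjusted p = 0.592), and the groups overlapped. The brightest values were near the top of the scale: the highest signal on an array was 13.98 to 14.01, and Ldhc stood at 13.61 or above on every wild-type array. Whether differences are compressed at such signals was not measured.

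**Figure D2:**
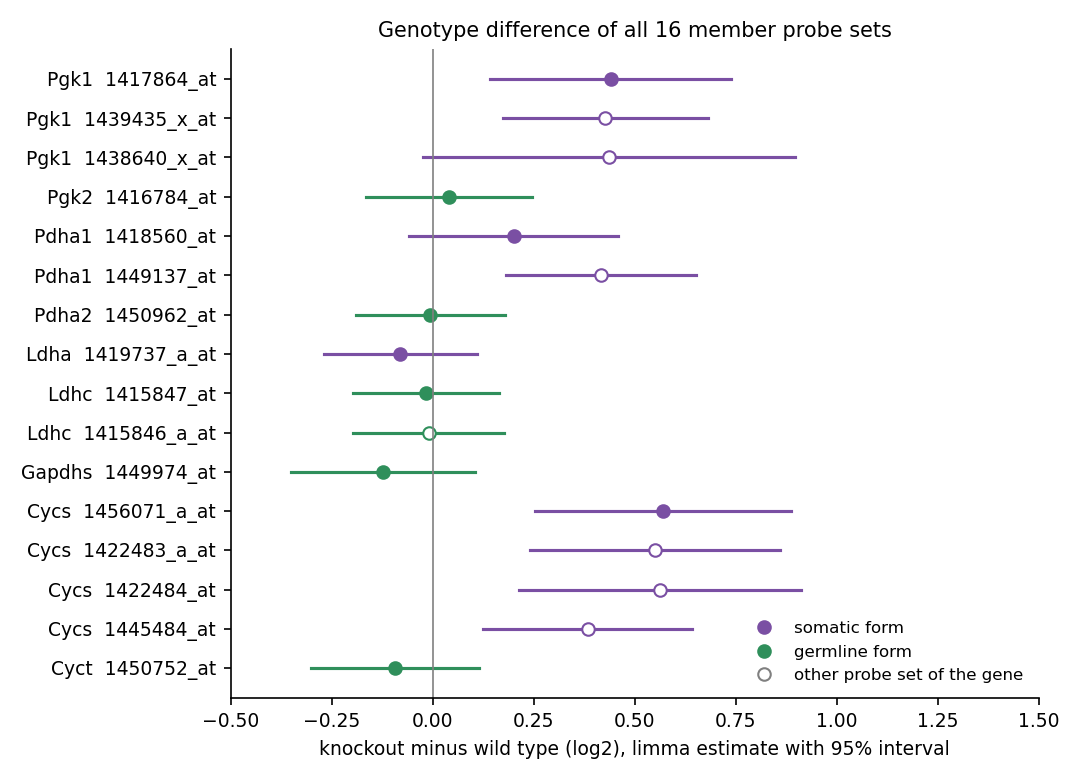
Difference between knockout and wild type (x axis, log2) for each of the 16 probe sets, with the 95% interval of the limma fit; filled points are the brightest probe set of a gene. The intervals of 7 of 10 somatic probe sets, of Cycs, Pgk1 and Pdha1, lie above 0, and those of all 6 germline probe sets cross 0. An interval without 0 means an unadjusted limma p under 0.05. Of all probe sets, 6.81% were higher at this p, and 15.1% passed it in either direction.

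No gene of the 5 pairs passed the limma threshold, where 45 of 45037 probe sets (0.0999%) did. With weights that count some arrays more than others, Cycs and Pgk1 passed (limma adjusted p = 0.024 and 0.028), as did 3.67% of all probe sets as higher, and without wild type 3 Cycs passed (limma adjusted p = 0.048), as did 0.395% of all as higher. At an unadjusted p under 0.05, 7 of 10 somatic probe sets were higher in knockout, against 6.81% of all probe sets, and 0 were lower, against 8.31%. Of the 6 germline probe sets 0 had an unadjusted p under 0.05 in either direction, against 15.1% of all. Groups without overlap, knockout above wild type, were seen for 7 of 10 somatic and 0 of 6 germline probe sets, against 8.62% of all. Knockout below wild type without overlap was seen for 0 of the 16, against 10.7% of all. The 7 came from 3 genes (Cycs, Pgk1 and Pdha1) and include the dim probe set of Cycs, and probe sets of a gene are not independent. Pgk1 and Pdha1 are X-linked. Of 617 X-linked genes, 285 had an unadjusted limma p under 0.05 in either direction for their brightest probe set. The median difference of the brightest probe sets was 0.32 for the 4 somatic genes and -0.02 for the 5 germline genes, against 0.01 over 18193 genes.

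The X chromosome as a whole stood higher in knockout in these values. Over 617 X-linked genes the median difference was 0.27 and 89.6% were above 0, against a median of 0.00 over 17404 autosomal genes. For their brightest probe sets, the differences of the X-linked members were 0.44 for Pgk1, above this median, and 0.20 for Pdha1, below it. The other probe set of Pdha1, with 0.42, lay above it. Cycs, with 0.57, is autosomal. The part of this in the differences of Pgk1 and Pdha1 was not tested.

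**Figure D3:**
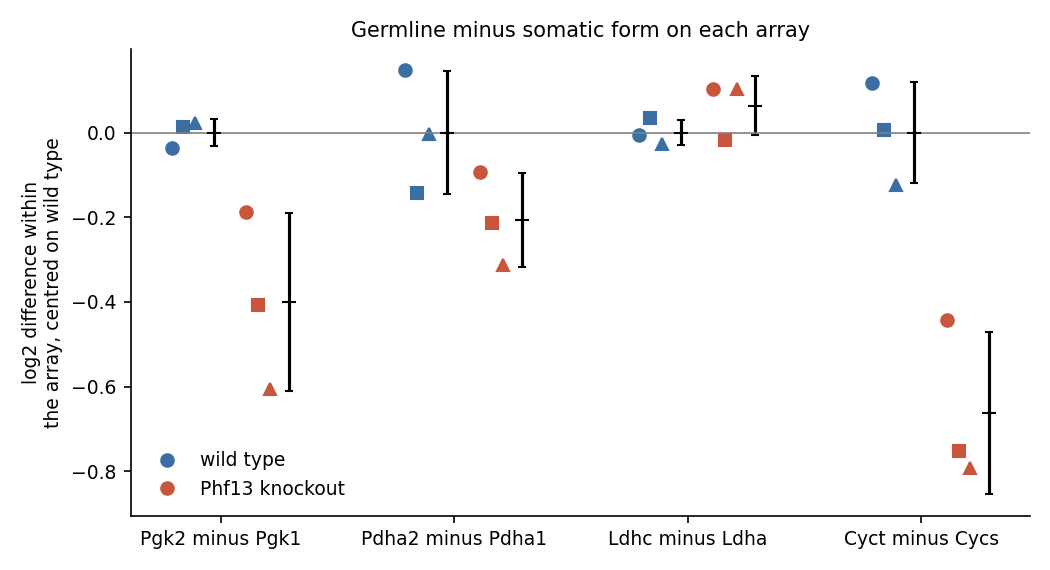
Germline minus somatic form within each array (y axis, log2), centred on the wild-type mean of each pair, for wild type (blue) and knockout (red), with the mean and SD of each genotype. The knockout arrays lie below all wild-type arrays for Cyct minus Cycs and for Pgk2 minus Pgk1, and the groups overlap for the other pairs.

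By their 18S ribosomal RNA control signals the arrays formed 2 sets, one of wild type 1, wild type 2 and knockout 1 (control means from 12.03 to 12.67) and one of wild type 3, knockout 2 and knockout 3 (from 9.69 to 10.71). Inside each set the control mean was lower in knockout, at 12.03 against 12.34 and 12.67, and at 9.87 and 9.69 against 10.71; its part in the differences of the members was not tested. The 3′ minus 5′ difference of the Gapdh controls, which reflects RNA or labelling quality, was 0.00 to 0.14 in the former and -0.27 to -0.20 in the latter. Inside these sets, in that order, the genotype difference of the brightest probe set was 0.48 and 0.47 for Cycs, 0.23 and 0.48 for Pgk1, and 0.08 and 0.26 for Pdha1. Other probe sets gave other patterns. Those of Cycs differed by 0.32 and 0.59, by 0.325 and 0.56, and by 0.55 and 0.18 (the dim one). Those of Pgk1 differed by 0.235 and 0.485, and by 0.01 and 0.54, and that of Pdha1 by 0.46 and 0.325. The change of Cyct minus Cycs was -0.51 and -0.65, and that of Pgk2 minus Pgk1 was -0.18 and -0.53. Gapdhs was higher on all 3 arrays of the former set than on all 3 of the latter, with means of 12.82 and 12.62, and differed between genotypes by -0.06 and -0.08 inside them. No set has more than 2 arrays of a genotype, so these values have no test. With the sets as a block in the limma fit, over all 6 arrays, the differences were 0.47 for Cycs, 0.35 for Pgk1 and 0.17 for Pdha1 (limma adjusted p = 0.173, 0.214 and 0.498).

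Among other enzymes of glycolysis the differences went both ways. Of 13 measured genes of this list, 6 were above 0 and 7 below, the median was -0.01, and 0 passed the limma threshold. Before adjustment, 3 were higher and 2 lower at p under 0.05, where 6.81% and 8.31% of all probe sets were. These shares are the background for the following lists too. Ldhb, the lactate dehydrogenase subunit that favours pyruvate, stood at 9.91, 9.81 and 10.02 in wild type and at 10.19, 10.50 and 10.57 in knockout, a difference of 0.51 (limma adjusted p = 0.188). Hexokinase 2 (Hk2) and phosphoglycerate mutase 1 (Pgam1) each differed by 0.36 (limma adjusted p = 0.240 and 0.241). In these 3 genes the knockout arrays lay above all wild-type arrays. In Pfkm, Pfkp and Eno3, which differed by -0.20, -0.25 and -0.28, they lay below all wild-type arrays. Of all probe sets, 8.62% lay above and 10.7% below without overlap. Pfkm, Pfkp and Eno3 are outside the rule for naming genes and were named after their values were seen.

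Of 14 other germline forms of energy enzymes and carriers, 13 were below 0 and 1 above, with a median of -0.07 and 0 called by limma (1 lower at an unadjusted p under 0.05). Cox6b2, the testis form of a cytochrome c oxidase subunit, differed by -0.23 and its groups did not overlap (limma adjusted p = 0.291). Got1l1, of the aspartate aminotransferase family, differed by -0.23, and Oxct2a, the germline form of the enzyme that starts the breakdown of ketone bodies, by -0.18 (limma adjusted p = 0.377 and 0.506). The median over the 11257 probe sets above the upper quartile of mean signal was -0.05, and 37.3% of them were above 0.

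Of 12 genes of the pyruvate dehydrogenase complex and its regulators, 8 were above 0 and 4 below, with a median of 0.05 and 0 called by limma (before adjustment, 3 were higher and 1 lower at p under 0.05). Of the 4 kinases that switch the complex off, 3 were above 0 and 1 below. Pdk3, which is X-linked, differed by 0.32 and Pdk1 by 0.56, whereas Pdk2 differed by -0.39 (limma adjusted p = 0.214, 0.256 and 0.232). Pdk4 differed by 0.53 (limma adjusted p = 0.266). The core subunit genes Pdhb, Dlat and Dld, which serve both alpha subunits, differed by 0.04, -0.09 and -0.02. Pdhx, also of the complex, differed by -0.18 (limma adjusted p = 0.428). These and Pdk4 are outside the rule for naming genes and were named after their values were seen.

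Of 13 partners of cytochrome c in the respiratory chain, 9 were above 0 and 4 below, with a median of 0.05 and 0 called by limma (3 higher at an unadjusted p under 0.05). Cox8a and Cox6b1, subunits of cytochrome c oxidase, differed by 0.29 and 0.24, and Hccs, the X-linked lyase that attaches heme to cytochrome c, by 0.30 (limma adjusted p = 0.292, 0.326 and 0.303). Of 5 partners of cytochrome c in apoptosis, 2 were above 0 and 3 below, the median was -0.02 and 0 were called by limma (1 higher at an unadjusted p under 0.05). Apaf1, the scaffold that cytochrome c binds to activate Casp9, differed by 0.36 without overlap (limma adjusted p = 0.224), Casp9 by 0.09 and Diablo by -0.10. Of 7 genes of glucose and lactate transport, 5 were above 0 and 2 below, with a median of 0.10 and 0 called by limma (before adjustment, 1 was higher and 1 lower at p under 0.05). The glucose transporters Slc2a8 and Slc2a1 differed by -0.33 and 0.23, and the monocarboxylate transporter Slc16a1 by 0.22 (limma adjusted p = 0.217, 0.328 and 0.383).

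Markers of somatic cells stood higher in knockout beside Cycs and Pgk1. All 10 Sertoli cell markers were above 0, with a median of 0.42, and their mean log2 signal ran from 8.12 to 8.18 on wild-type arrays and from 8.48 to 8.57 on knockout arrays. Clu, the brightest, differed by 0.36 and Cst12 by 0.58. All 5 Leydig, all 8 myoid and stromal, all 6 leukocyte and all 4 adipose markers measured were above 0, with medians of 0.28, 0.32, 0.28 and 0.37, and their mean signals overlapped between genotypes for Leydig cells (8.80 to 9.12 against 9.0 to 9.50) and leukocytes (5.47 to 5.62 against 5.44 to 6.03), but not for myoid cells and stroma (7.45 to 7.83 against 7.94 to 8.23) or adipose tissue (5.47 to 6.13 against 6.40 to 6.71). Inside the sets of arrays with the higher and the lower 18S signals, in that order, the medians were 0.37 and 0.39 for Sertoli markers, 0.44 and 0.32 for adipose and 0.18 and 0.68 for myoid and stromal markers, but turned sign for Leydig cells (-0.08 and 0.34) and leukocytes (-0.09 and 0.33). Medians were 0.17 for endothelium (-0.03 and 0.13 inside the sets), -0.02 for red blood cells and 0.08 for epididymis (0.37 and -0.24 inside the sets). In whole tissue, more cells of a type and more RNA per cell cannot be told apart, and the part of these cells in the differences of Cycs and Pgk1 was not tested.

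Markers of germ cells differed by stage. All 8 markers of pachytene and later spermatocytes were below 0, with a median of -0.22 and mean signals of 10.19 to 10.29 in wild type and 9.97 to 10.11 in knockout. Round spermatid markers had a median of -0.03 (4 of 9 above 0) and elongating spermatid markers of 0.00 (4 of 8 above 0). Among the latter Prm1 stood at the highest signal of each array. Its difference of 0.01 is one of the 4 above 0 and enters the median, but was not read by itself. Early meiotic prophase had a median of 0.03, differentiating spermatogonia of 0.07 and undifferentiated spermatogonia of 0.01. No gene of the cell marker lists passed the limma threshold. At an unadjusted limma p under 0.05, 7 of 10 Sertoli and 4 of 8 myoid and stromal markers were higher. So were 3 of 4 adipose and 2 of 5 Leydig markers, but 0 of 6 leukocyte and 0 of 5 endothelial markers, against 6.81% of all probe sets. Lower were 4 of 8 pachytene, 2 of 7 undifferentiated spermatogonial and 1 of 8 early meiotic markers, against 8.31% of all probe sets. That share includes dim probe sets. Of the 11257 probe sets above the upper quartile of mean signal, 2341 had an unadjusted limma p under 0.05 in either direction. Of these 11257, 37.3% were above 0.

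**Figure D4:**
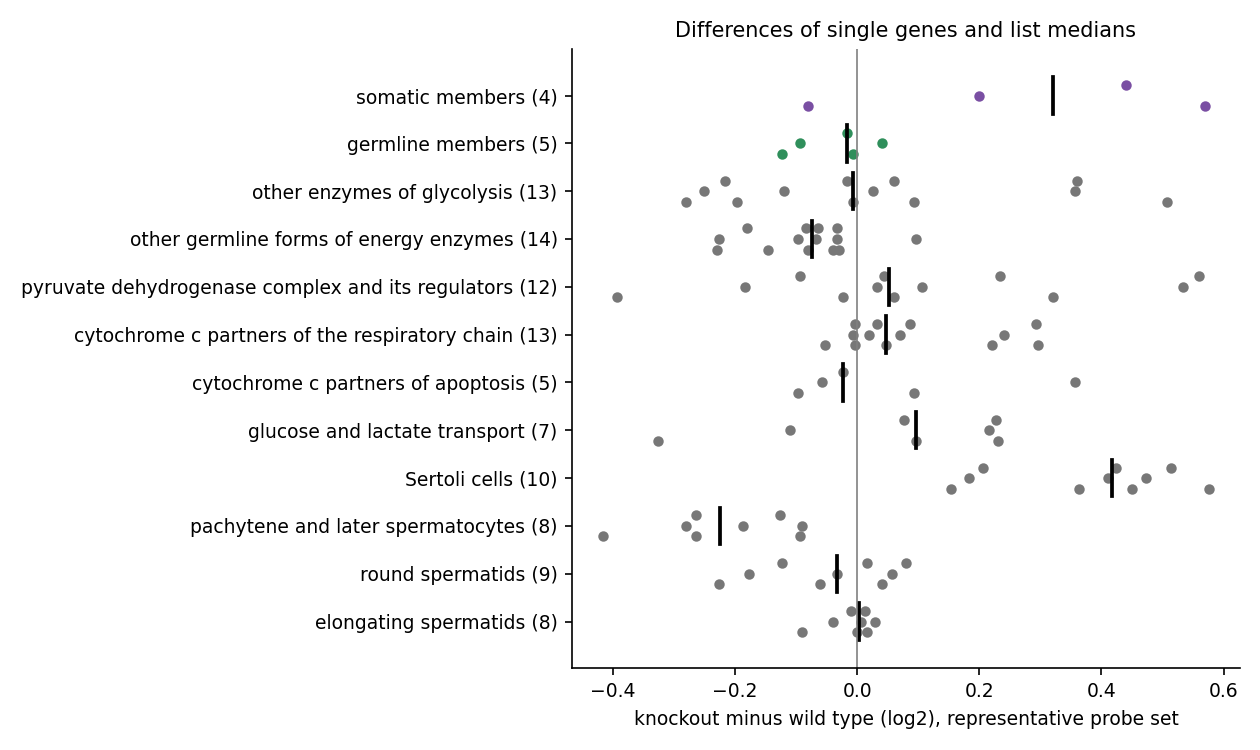
Difference between knockout and wild type (x axis, log2) of single genes, 1 point per gene, for the members and for the lists named in the text, with the number of genes measured in brackets and the median of each row as a black line. The somatic members have a median of 0.32 and the Sertoli markers of 0.42, while the germline members, at -0.02, lie near 0.

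Cycs and Pgk1 varied most over the 6 arrays, with SDs of 0.36 and 0.29, whereas Ldhc varied least, with 0.015. After each gene was centred on its own mean, the genes nearest to Cycs among 18193 were 1700017L05Rik, X-linked Actrt1 and BC048507, with root mean square differences of 0.04, 0.04 and 0.05 over the 6 arrays. Those nearest to Pgk1 were X-linked Slc25a5, which encodes a mitochondrial ADP and ATP carrier, then Ttyh2 and X-linked Gpkow, at 0.03, 0.04 and 0.04. With 6 arrays and this many genes some will lie close to any pattern. Slc25a5 differed by 0.42, and Slc25a31, the carrier of the same family in male germ cells, differed by 0.10; it was named after its value was seen.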

How the data were processed

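The authors deposited log2 values, 1 per probe set and array, whose processing notes name Affymetrix Expression Console 1.4.1. That the scale is log2 follows from the range and quartiles of the values. The summarization and normalization methods and the build are not given in the sources used. The 64 control probe sets were left out, and the other 45037 were fitted without a filter on genotype with lmFit and eBayes of limma 3.58.1 in R 4.3.3, two-sided, with Benjamini-Hochberg adjustment over all of them and a threshold of 0.05. Every adjusted p is from this limma fit unless an alternative is named with it, and the 95% intervals are its moderated, unadjusted ones. The number of arrays limits the precision.

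A gene is represented by its probe set with the highest mean over the 6 arrays. Lists are described by counts and medians, without a set test. All 10 members were named, from each list of related genes at most 3 genes with the smallest p (exceptions are marked), from each list of cell markers at most 2 of the brightest, and the 3 genes nearest to each of the 2 most variable members. Pair differences were compared with an exact permutation test. Members and lists were chosen with earlier results of these data known. The limma step was tested on simulated data. Alternatives were blocks for replicate number, title code runs and 18S array sets, a filter on dim probe sets, quantile normalization, median centring, array weights, trend with robust moderation, leaving out each array, and averaging the probe sets of a gene.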

Additional observations from a re-analysis of the deposited data

How the results depend on the processing

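The count of member genes past the limma threshold was 0 in 13 of 15 alternatives. It was 2 with array weights (Pgk1 at 0.52 with adjusted p = 0.028, Cycs at 0.62 with adjusted p = 0.024) and from 0 to 1 when an array was left out, the 1 being Cycs without wild type 3 (0.67, adjusted p = 0.048). Over all alternatives the limma adjusted p ran from 0.024 to 0.529 for Cycs and from 0.028 to 0.533 for Pgk1.

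The count over the whole array, 45, was 28 with the replicate block, 16 with title code runs as a block, 79 among probe sets above the median level, 110 with trend and robust moderation and 3186 with array weights. Leaving out an array gave from 12 (without wild type 2) to 1176 (without wild type 3), with 166 without knockout 1 and from 13 to 20 without any other. Same-numbered arrays deviated from their group means with correlations of 0.26, 0.07 and 0.12, so the numbers were not taken to pair them, and the replicate block changed no call of a member. The cause of these shifts was not tested.

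All 4 pair differences kept their direction in 15 alternatives, but some of these could not change them. The replicate block, median centring, the filter on dim probe sets and trend with robust moderation leave such differences as they are. Over all alternatives, Cyct minus Cycs ran from -0.77 to -0.56 and Pgk2 minus Pgk1 from -0.51 to -0.30. Pdha2 minus Pdha1 ran from -0.32 (mean of the probe sets) to -0.13 (title code runs as a block, and without wild type 1). Ldhc minus Ldha ran from 0.016 (array weights) to 0.10 (without knockout 2). The sign of Pgk2 turned with title code runs as a block (-0.011) and that of Pdha2 when knockout 2 was left out (0.012; from -0.028 to 0.012 over the arrays). Cycs ranged from 0.41 to 0.67, Pgk1 from 0.33 to 0.57 and Pdha1 from 0.12 to 0.31.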
